A study of Mus musculus with 2 samples.

Results

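The insulin-like growth factor system was described through 10 of the 32285 genes listed in both count matrices. They were chosen by name, as the ligands Igf1 and Igf2, the receptors Igf1r and Igf2r, and the binding proteins Igfbp2, Igfbp3, Igfbp4, Igfbp5, Igfbp6 and Igfbp7. Igf1 RNA was found mainly in the fibroblast-like cells of the proximal prostate, Igf2 RNA mainly in its endothelial-like cells, and UMIs of the receptor Igf1r in every class there. In the proximal library Igfbp4 and Igfbp6 were highest in fibroblast-like cells and Igfbp3 in endothelial-like cells. Igfbp2 was highest there in basal-like and then, with the 6 smooth muscle-like cells left out, in fibroblast-like cells. Igfbp5 and Igfbp7 were high in the proximal stroma and also found in the proximal epithelium. Igfbp4 was found in ventral basal-like cells as well.

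IGF1 and IGF2 are secreted peptides related to insulin that signal through the receptor tyrosine kinase IGF1R, while IGF2R, the mannose 6-phosphate receptor, carries IGF2 to the lysosome. The binding proteins are secreted, hold the ligands outside the cell and are cut by specific proteases, which frees the ligand. In the prostate, IGF1 is known as a product of the stroma whose receptor is carried by the epithelium.

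The data came from single-cell RNA sequencing of dissociated prostate tissue from male wild-type mice of the C57BL6 strain, whose age and number the labels do not give. The tissue was digested with papain and then with TrypLE, a trypsin substitute. The study held 1 library of the ventral lobes, prepared with 10x Genomics 3′ reagents of version 2, and 1 library of the proximal and periurethral region, prepared with version 3. Region and kit version therefore cannot be told apart, and with 1 library per group no difference has a replicate check and no p-value is given.

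A unique molecular identifier (UMI) stands for 1 captured RNA molecule. Of 2221 ventral barcodes 1988 were kept, with a median of 25758.5 UMIs, and of 4344 proximal barcodes 3705 were kept, with a median of 15260 UMIs. No barcode was shared by the libraries. Cells were clustered within each library without the 10 genes and without 32 other genes of the pathway, and clusters were named from marker genes. The ventral library held 1702 distal luminal-like, 90 proximal luminal-like, 141 basal-like, 30 macrophage-like and 25 T or NK cell-like cells. The proximal library held 704 distal luminal-like, 688 proximal luminal-like, 912 basal-like, 515 fibroblast-like, 6 smooth muscle-like, 61 endothelial-like, 79 macrophage-like, 27 T or NK cell-like and 26 seminal vesicle epithelium-like cells. In each class all of its own markers were found and their summed level was highest there, except that Gzma was at 0 in the ventral T or NK cell-like cells. A further 687 proximal cells in 3 clusters stayed unnamed because markers of another class led them. Among the ventral cells, over 5% of the UMIs came from the secretory genes Sbp and Spink1 in 4 of 141 basal-like, 32 of 90 proximal luminal-like and 14 of 25 T or NK cell-like cells. Doublets were largely not removed.

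Levels are the UMIs of a gene per 1000000 UMIs of a class (CPM), with exact 95% Poisson intervals that cover counting error only. The kits read the 3′ end, so levels were compared between cells and not between genes.

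The 10 genes lie on 7 mouse chromosomes, and all of their identifiers match the GENCODE annotation of build GRCm38, which is the mm10 build named in the submitters' processing notes. Igf1 lies on chromosome 10 at 87858265 to 87937042 and Igf2 on chromosome 7 at 142650766 to 142666816. Igf1r lies on chromosome 7 at 67952827 to 68233668 and Igf2r on chromosome 17 at 12682406 to 12769664. Igfbp2, at 72824503 to 72852474 on chromosome 1, and Igfbp5, at 72857932 to 72874884, point toward each other with 5457 bases between their ends. Igfbp3, at 7206086 to 7213923 on chromosome 11, is separated by 3539 bases from Igfbp1, for which 1 UMI was found in the proximal library and none in the ventral library. Igfbp4 lies further along chromosome 11 at 99041244 to 99054392, Igfbp6 on chromosome 15 at 102144362 to 102149511 and Igfbp7 on chromosome 5 at 77349240 to 77408041. Exons of Igfbp7 overlap exons of Polr2b on the opposite strand, and exons of Igf2 overlap those of Igf2os, which had 2 UMIs.

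The start-site sequences of 4 binding proteins are shown because these genes mark the contrasts described here. Igfbp2 and Igfbp5 are neighbours with different cell patterns, and Igfbp4 and Igfbp6 lie on different chromosomes and were both highest in fibroblast-like cells. Each line gives the 250 bases before the RefSeq start (GRCm38.p6), 5′ to 3′ along the gene. Igfbp2 has 2 RefSeq starts, of which the first is shown; the window before the second (chr1:72825137-72825386, plus strand) overlaps an Igfbp2 exon and holds none of the motifs and 11 CpG pairs. Capitals mark the TATA box letters TATAAA and the GC box letters GGGCGG, searched on both strands, and CCAAT was searched as well.
Igfbp2: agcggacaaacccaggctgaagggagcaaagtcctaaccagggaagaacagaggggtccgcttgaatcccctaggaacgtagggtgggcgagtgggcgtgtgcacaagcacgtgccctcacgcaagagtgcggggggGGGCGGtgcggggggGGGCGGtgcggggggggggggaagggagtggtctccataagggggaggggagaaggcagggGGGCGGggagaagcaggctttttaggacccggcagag
Igfbp5: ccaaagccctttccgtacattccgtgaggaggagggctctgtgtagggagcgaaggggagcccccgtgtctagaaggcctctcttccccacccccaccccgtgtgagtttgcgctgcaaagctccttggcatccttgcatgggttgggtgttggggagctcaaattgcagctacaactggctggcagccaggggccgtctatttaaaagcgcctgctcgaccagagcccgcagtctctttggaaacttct
Igfbp4: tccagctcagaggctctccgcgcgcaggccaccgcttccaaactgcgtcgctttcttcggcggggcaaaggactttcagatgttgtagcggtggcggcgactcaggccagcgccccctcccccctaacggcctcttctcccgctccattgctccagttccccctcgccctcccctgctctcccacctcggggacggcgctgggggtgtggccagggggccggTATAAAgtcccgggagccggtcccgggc
Igfbp6: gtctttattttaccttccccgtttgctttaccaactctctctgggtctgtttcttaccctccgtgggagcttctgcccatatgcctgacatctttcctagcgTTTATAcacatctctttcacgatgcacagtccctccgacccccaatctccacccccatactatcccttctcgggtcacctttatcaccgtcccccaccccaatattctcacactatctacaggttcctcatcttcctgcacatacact
The Igfbp2 window (chr1:72824230-72824479, plus strand) holds 3 GC boxes and 14 CpG pairs, while the Igfbp5 window (chr1:72874866-72875115, minus strand), whose end overlaps the annotated first exon, holds none of the motifs and 10 CpG pairs. The Igfbp4 window (chr11:99040994-99041243, plus strand) holds 1 TATA box close to the start and 22 CpG pairs. The Igfbp6 window (chr15:102143936-102144185, plus strand) holds 1 TATA box in reverse, written TTTATA, 2 CCAAT boxes and 7 CpG pairs. Of 32851 RefSeq windows of this length, 12.4% hold TATAAA, 32.7% GGGCGG and 33.8% CCAAT, and the median is 6 CpG pairs. A match describes these letters and is not evidence that a factor binds there.

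Of the ligands, Igf1, which carries the growth signal of the stroma, was concentrated in fibroblast-like cells at 236 CPM (224 to 249.8, from 1285 UMIs). Endothelial-like cells held 18.6 CPM (10.4 to 30.6, from 15 UMIs), macrophage-like cells 3.05 CPM (0.629 to 8.91, from 3 UMIs), and basal-like, distal luminal-like and proximal luminal-like cells 0.163, 0.440 and 0.187 CPM. After every cell was thinned to 1000 UMIs, 85 of 510 fibroblast-like cells (16.7%, exact interval 13.5 to 20.2) and 0 of 911 basal-like cells had an Igf1 UMI, at median depths of 10321 and 12012.5 UMIs before thinning. Without thinning these shares were 47.6% and 0.219%. Igf1 was thus spread over many fibroblast-like cells, and the highest of them held 2.65% of the UMIs of the class.

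In the ventral library, where no fibroblast-like cluster was found, Igf1 appeared in 23 UMIs of the basal-like cells, at 31.7 CPM (20.1 to 47.6). All 23 lay in 4 of the 141 basal-like cells. These were among the 5 cells in which at least 3 of 8 fibroblast markers were found, and 78.3% lay in a single cell. The other 136 basal-like cells held none, which allows a level of up to 4.25 CPM at 3 counts. All 8 fibroblast markers were found in the ventral basal-like cells, at a summed 5334 CPM, against 9509 CPM in the proximal fibroblast-like and 1344 CPM in the proximal basal-like cells. Their own 8 basal markers summed to 4749 CPM. In the proximal library 7 basal-like cells with 3 or more of these markers held no Igf1 UMI.

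Igf2, the fetal growth factor of the family, was rare, with 69 UMIs in all kept proximal cells and 3 in all kept ventral cells. Endothelial-like cells held 42 of them, at 52.0 CPM (37.5 to 70.3), in 13 of 61 cells. No other proximal class exceeded 0.736 CPM, the level in fibroblast-like cells. The endothelial-like cluster was led by Ccl21a, and 6 of its cells showed at least 3 of 6 lymphatic markers. Of the 42 Igf2 UMIs, 41 came from the other 55 cells, which lacked that marker set. Those 55 cells held 54.9 CPM (39.4 to 74.4) and the 6 cells 16.5 CPM (0.418 to 91.9), and these intervals overlapped.

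**Figure D1:**
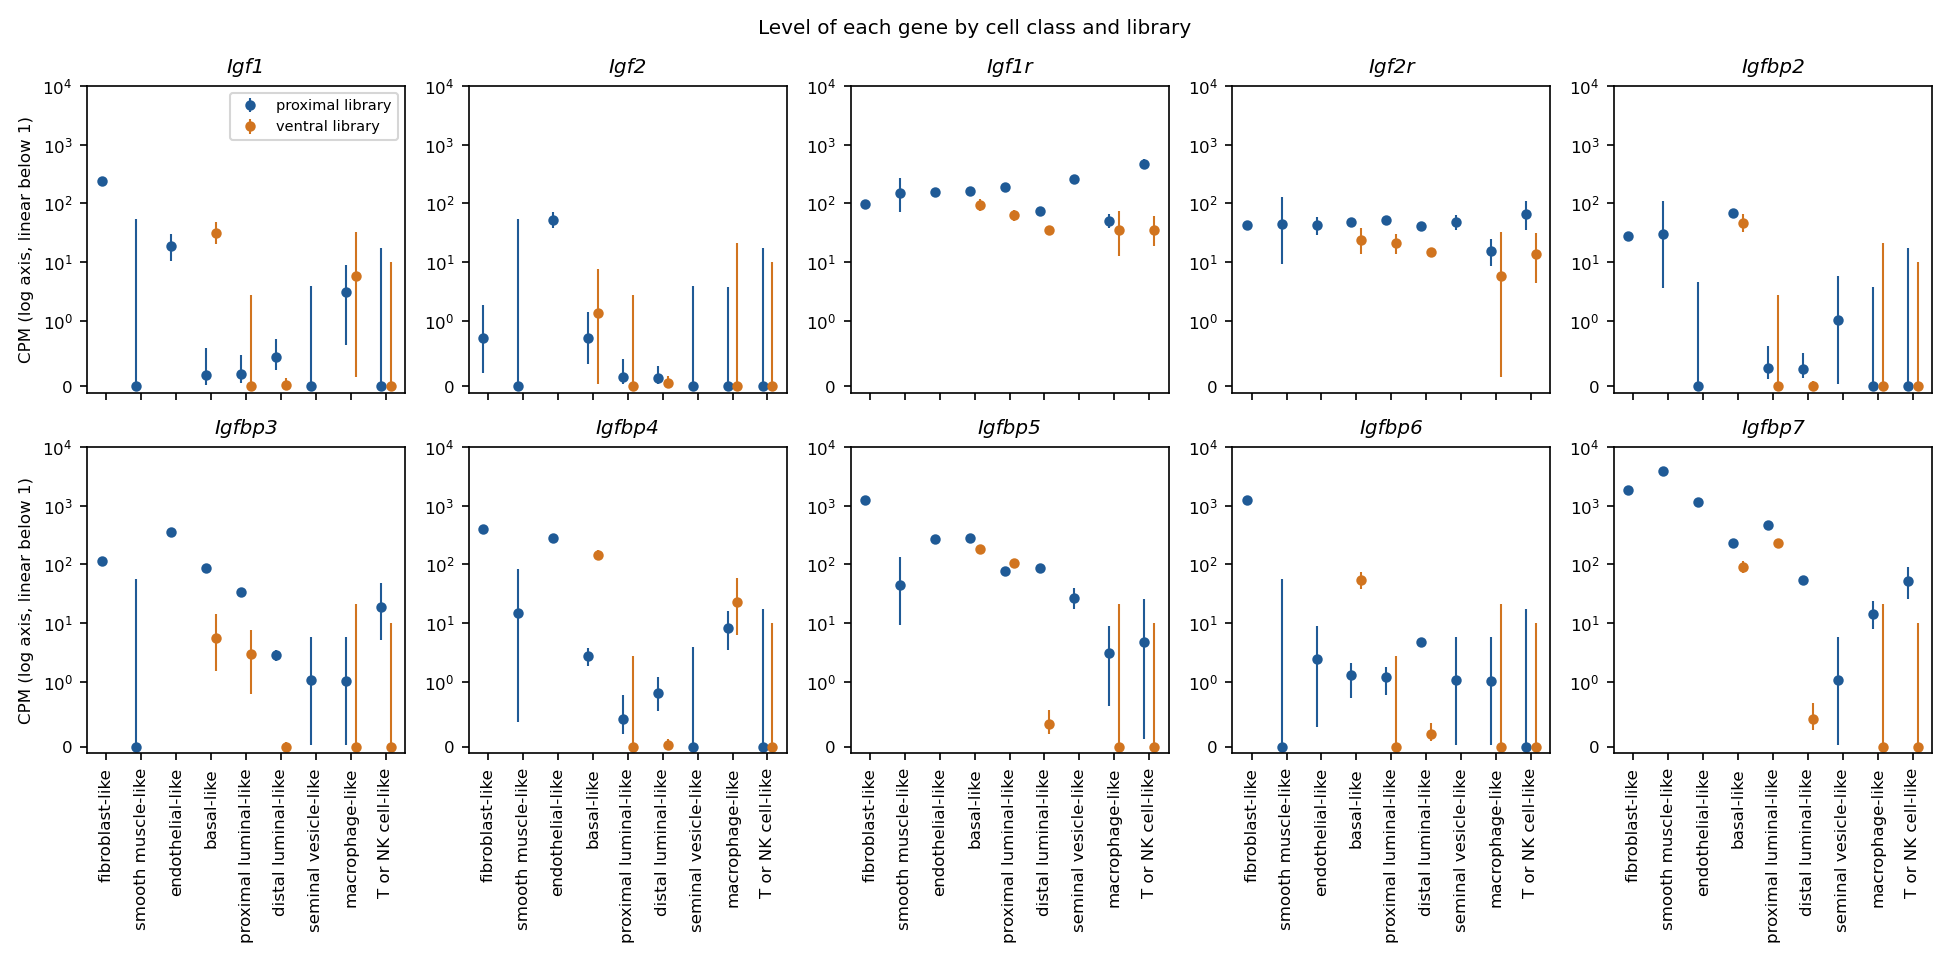
Level of each of the 10 genes (CPM, log axis that is linear below 1) in each cell class of the proximal and ventral libraries, with points for the class sums and bars for exact 95% Poisson intervals of counting error. Igf1, Igfbp4 and Igfbp6 peak in fibroblast-like cells, Igf2 and Igfbp3 in endothelial-like cells and Igfbp2 in basal-like cells, while Igf1r and Igf2r have UMIs in every class of the proximal library.

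Igf1r, the signalling receptor, was found in all proximal classes and followed no division between stroma and epithelium. Among classes of over 50 cells its level was 187 CPM in proximal luminal-like, 162 in basal-like, 153 in endothelial-like, 98.6 in fibroblast-like, 75.2 in distal luminal-like and 50.8 in macrophage-like cells, the last with 46% of its 50 UMIs in 1 cell. In that order the intervals of the basal-like (154.6 to 169.0) and endothelial-like cells (128 to 183) overlapped, and all other neighbours were separate. The 26 seminal vesicle epithelium-like cells held 259.7 CPM. The 27 T or NK cell-like cells held 469.6 CPM, but its 101 UMIs came from 8 cells and 39.6% of them from a single cell. In the ventral library Igf1r stood at 95.1 CPM (74.0 to 120.4) in basal-like, 62.4 (49.8 to 77.2) in proximal luminal-like and 34.6 (32.9 to 36.3) in distal luminal-like cells. When genes over 1% of UMIs were left out of the totals, the difference of basal-like over luminal-like cells fell from 1.21 to 0.45 on the log2(CPM + 10) scale and that of proximal over distal luminal-like cells from 0.70 to 0.17. The ventral T or NK cell-like cells held 35.2 CPM of Igf1r and the macrophage-like cells 34.7 CPM from 6 UMIs, both close to the distal luminal-like level. These classes also held 365905 and 211106 CPM of the distal luminal markers, against 471234 CPM in distal luminal-like cells, and the part of luminal RNA in their receptor levels was not tested.

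Igf2r, the clearance receptor, was also found in every proximal class. It ranged from 40.7 CPM in distal luminal-like to 65.1 CPM in T or NK cell-like cells, and within that range every neighbour in order had an overlapping interval. Macrophage-like cells stood lower, at 15.2 CPM (8.53 to 25.1, from 15 UMIs). Ventral cells held 23.4 CPM in basal-like, 20.8 in proximal luminal-like and 14.9 in distal luminal-like cells, and the intervals of all 3 overlapped. With totals that left out genes over 1% of UMIs, the ventral differences turned to -0.21 for basal-like over luminal-like and -0.13 for proximal over distal luminal-like cells on the log2(CPM + 10) scale.

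Igfbp4, a binding protein whose main protease is PAPPA, was a gene of fibroblasts and vessels. It stood at 405 CPM (388 to 422) in fibroblast-like and 279.7 CPM (244 to 319) in endothelial-like cells, with 69.1% and 72.1% of cells holding a UMI. Macrophage-like cells held 8.13 CPM from 8 UMIs, basal-like cells 2.69 CPM, and both luminal classes under 1 CPM. In ventral basal-like cells Igfbp4 stood at 146 CPM (120 to 177, from 106 UMIs). The 5 cells with fibroblast markers held 43 of these 106 UMIs, and the remaining 136 cells held 89.2 CPM (68.5 to 114) in 31 cells. Those 136 cells were the ones with fewer than 3 fibroblast markers found, and the part of fibroblast RNA in their level was not tested.

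Igfbp6, which prefers IGF2 as its ligand, was a gene of fibroblast-like cells. Fibroblast-like cells held 6761 UMIs, 1244 CPM (1215 to 1274), and no other proximal class with an Igfbp6 UMI exceeded the 4.70 CPM of distal luminal-like cells. After thinning, 303 of 510 fibroblast-like cells (59.4%) and 1 of 911 basal-like cells (0.110%) had an Igfbp6 UMI. The distal luminal-like level rested partly on 1 cell, which held 41.9% of its UMIs. In ventral basal-like cells 31 of 39 Igfbp6 UMIs lay in the 5 cells with fibroblast markers and the other 8 in 1 cell.

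Igfbp5, a binding protein that attaches to the extracellular matrix, was highest in fibroblast-like cells at 1264 CPM (1234 to 1294). Basal-like cells held 282 CPM (273 to 292) and endothelial-like cells 269 CPM (234 to 307), which did not differ beyond counting error. Distal luminal-like cells held 88.0 CPM and proximal luminal-like cells 77.4 CPM. Macrophage-like cells held 3 UMIs and T or NK cell-like cells 1.

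Igfbp7, a relative that binds IGFs weakly and is known from vessel walls, was found in both stroma and epithelium. The 6 smooth muscle-like cells held 3819.9 CPM (3366 to 4318), fibroblast-like cells 1849.8 CPM (1814 to 1886) and endothelial-like cells 1135 CPM (1063 to 1211). In the epithelium it stood at 459 CPM in proximal luminal-like, 229.7 CPM in basal-like and 54.4 CPM in distal luminal-like cells. Seminal vesicle epithelium-like cells held 1 UMI. The 11 UMIs of T or NK cell-like cells all came from 1 cell, and the smooth muscle-like level took 41.4% of its UMIs from 1 cell. All 8 basal markers were found in the 6 smooth muscle-like cells, at a summed 5655 CPM against 6916 CPM in basal-like cells, and their part in the Igfbp7 level was not tested.

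Igfbp3, the main IGF carrier of serum, was highest in endothelial-like cells at 348 CPM (308 to 391). Fibroblast-like cells followed at 113 CPM (104 to 123), basal-like cells at 87.0 (81.9 to 92.4), proximal luminal-like cells at 33.7 (31.3 to 36.3) and distal luminal-like cells at 2.82 (2.28 to 3.44). These intervals did not overlap. All 281 endothelial UMIs lay in the 55 cells without the lymphatic marker set, in 26 of them. The ventral library held 8 Igfbp3 UMIs in all, 4 in basal-like and 4 in proximal luminal-like cells.

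Igfbp2 was highest in basal-like cells, in the proximal library mostly in 1 of their 3 clusters. Basal-like cells of the proximal library held 68.0 CPM (63.4 to 72.8, from 833 UMIs) and those of the ventral library 46.9 CPM (32.5 to 65.5, from 34 UMIs). None of the 34 ventral UMIs lay in the 5 cells with fibroblast markers. Outside that cluster, which is led by Aqp3 and held 760 of the 833 UMIs, proximal basal-like cells held 9.11 CPM, less than the 28.2 CPM (23.9 to 33.0) of fibroblast-like cells. Both luminal classes of the proximal library held under 0.3 CPM, and endothelial-like, macrophage-like and T or NK cell-like cells none.

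For each pair of classes a gene was called different when its CPM differed at least 4-fold with a 95% interval of the ratio that excluded 1. Genes needed 50 UMIs in both sides together, and the share of all such genes called gives the background. The epithelial side of a comparison was the named basal-like, luminal-like and seminal vesicle epithelium-like cells, without the 687 unnamed cells, which held 86.0 CPM of Igfbp3 and 439 CPM of Igfbp7. Between fibroblast-like and epithelial-like cells of the proximal library, 9 of the 10 genes reached that minimum, all but Igf2. Of these, 6 were higher in fibroblast-like cells and none lower, where 11.5% of 15496 genes were higher and 8.44% lower. Igf1 was higher by a ratio of 773 (504 to 1253), Igfbp6 by 421 (366 to 486), Igfbp4 by 397 (313 to 511), Igfbp5 by 10.7 (10.3 to 11.01) and Igfbp7 by 8.77 (8.55 to 8.997). Igfbp3, at a ratio of 4.12 (3.76 to 4.52), was not called under 9 of 15 alternative settings. Igfbp2 stood at 2.28, Igf2r at 0.931 and Igf1r at 0.770, the last lower in fibroblast-like cells with an interval of 0.704 to 0.840. On the log2(CPM + 10) scale the median difference was 3.07 over the 9 genes and 0.053 over all genes tested.

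Between basal-like and luminal-like cells of the proximal library, 3 of the 8 genes with enough UMIs were higher in basal-like cells and none lower, where 6.4% of all genes were higher and 6.9% lower. Igfbp2 led with a ratio of 251 (151 to 451), followed by Igfbp3 at 5.90 (5.38 to 6.47). Igfbp4, at 4.04 (2.45 to 6.63) from 33 and 37 UMIs, was not called under 4 of 15 alternatives, 1 of which left out basal-like cells with 3 or more fibroblast markers. Igfbp3 was not called under 4 others, such as the removal of doublets at the expected rate. Igfbp5 stood at 3.36 (3.21 to 3.51) and Igf1r at 1.37 (1.30 to 1.44). In the ventral library, 3 of 5 genes with enough UMIs were higher in basal-like cells, where 11.5% of all genes were higher and 4.21% lower. These were Igfbp4 with 106 UMIs against 1 in luminal-like cells, Igfbp5 at a ratio of 55.2 (43.4 to 70.1) and Igfbp7 at 12.97 (9.80 to 16.9). Without the 5 cells with fibroblast markers all 3 were still called, Igfbp7 close to the threshold at 28.3 CPM (17.3 to 43.7) against 7.02 CPM, a difference of 1.17 on the log2(CPM + 10) scale in place of 2.57. Igfbp2 had 34 UMIs in ventral basal-like and none in luminal-like cells, at least 739-fold higher by its point value against a limit of 3 counts over the luminal-like cells and at least 569-fold by the exact 95% interval of the ratio, though it missed the UMI minimum.

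Between proximal luminal-like and distal luminal-like cells of the proximal library, 2 of 6 genes were higher in the former and none lower, where 10.2% of all genes were higher and 5.81% lower. These were Igfbp3 at a ratio of 11.98 (9.67 to 14.98) and Igfbp7 at 8.45 (8.04 to 8.88). Igfbp6 stood at 0.259 (0.164 to 0.394). It was called lower with another random seed, with totals that left out genes over 1% of UMIs and at a 2-fold threshold. Igf1r stood at 2.49 (2.37 to 2.62), and Igfbp5 at 0.880 (0.828 to 0.934), whose direction turned at a finer clustering, with a difference of 0.19 on the log2(CPM + 10) scale at resolution 2. In the ventral library, 2 of 4 genes were higher in proximal luminal-like cells, where 7.61% of all genes were higher and 0.468% lower. These were Igfbp5 at 299 (178 to 537) and Igfbp7 at 533 (339 to 884). The 32 cells with over 5% of UMIs from Sbp and Spink1 are among the 90 ventral proximal luminal-like cells, and both calls held without them.

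Against epithelial-like cells, 4 of 9 genes were higher in endothelial-like cells and 1 lower, where 7.7% of all genes were higher and 6.24% lower. Igfbp4 was higher by a ratio of 274 (209 to 364), Igf2 by 223 (123 to 425), Igfbp3 by 12.7 (11.1 to 14.4) and Igfbp7 by 5.38 (5.03 to 5.75). Igfbp2 was the lower gene, with 0 UMIs in endothelial-like cells against 12.4 CPM, but it was at least 3.33-fold lower by its point value against a limit of 3 counts and at least 2.70-fold by the exact 95% interval, both under the 4-fold threshold. Igf2 had too few UMIs for a call when cells were limited to 5% mitochondrial UMIs. Igf1r, at 1.198 (0.995 to 1.43), and Igf2r, at 0.914 (0.632 to 1.28), did not differ beyond counting error.

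Against epithelial-like cells, macrophage-like cells were lower in 4 of 8 genes and higher in 1, where 14.5% of all genes were lower and 7.91% higher. The 4 lower genes were Igfbp2, Igfbp3, Igfbp5 and Igfbp7, of which macrophage-like cells held 0, 1, 3 and 14 UMIs. The higher gene was Igfbp4 at a ratio of 7.97 (3.31 to 16.6) from 8 UMIs, which was not called after 5% free RNA was subtracted. Igf1r and Igf2r stood at 0.397 (0.294 to 0.523) and 0.331 (0.185 to 0.547), and both depended on the settings. The Igf1r difference, -1.18 on the log2(CPM + 10) scale, ranged from -1.81, where it was called with at least 1000 genes per cell and with doublets removed, to 0.18 at a coarser clustering (resolution 0.5). Igf2r, at -1.15, was called at resolution 2 with -1.97.

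**Figure D2:**
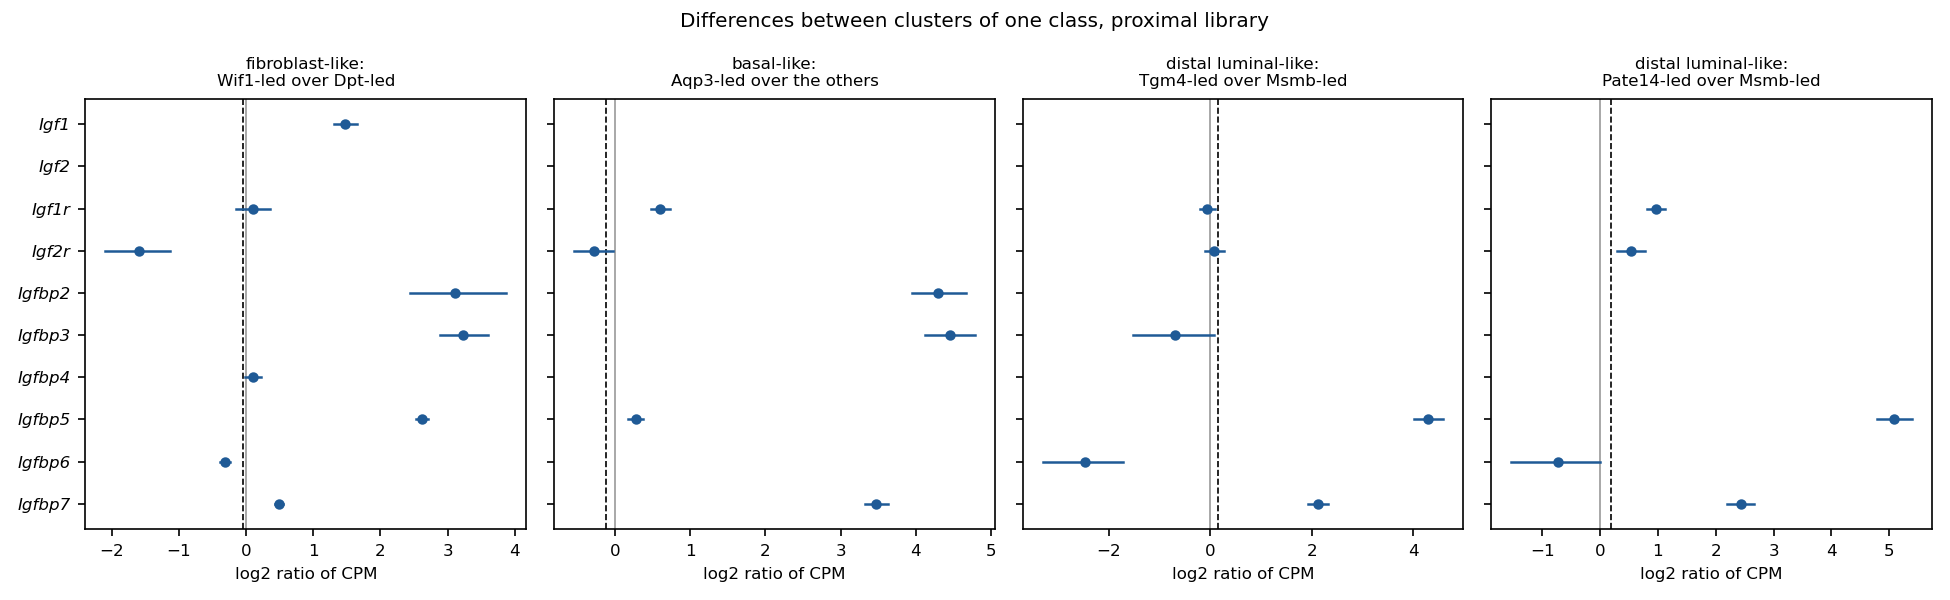
Log2 ratio of CPM for each gene in 4 comparisons of clusters within a class of the proximal library, with bars for exact 95% intervals of counting error; genes under 50 UMIs or without UMIs on a side are not drawn, and the dashed line is the median over all genes tested. Igfbp2, Igfbp3 and Igfbp5 lie to the right in the Wif1-led fibroblast-like cluster and Igfbp2, Igfbp3 and Igfbp7 in the Aqp3-led basal-like cluster.

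The 515 fibroblast-like cells fell into a cluster led by Wif1, Wnt2 and Cxcl14 (251 cells) and a cluster led by Dpt, Eln and Col3a1 (264 cells). The pairs of clusters compared here were chosen after their values had been seen. Igf1 stood at 371 CPM in the Wif1-led and 134 CPM in the Dpt-led cluster, a ratio of 2.78 (2.46 to 3.13). Of 9 genes with enough UMIs, 3 were at least 4-fold higher in the Wif1-led cluster and none lower, where 1.16% of all genes were higher and 2.24% lower. Igfbp3 stood at 229 against 24.4 CPM (9.39, 7.37 to 12.1), Igfbp2 at 56.4 against 6.50 CPM (8.68, 5.40 to 14.7) and Igfbp5 at 2402 against 391 CPM (6.14, 5.77 to 6.54). Igfbp4 did not differ beyond counting error (422 and 392 CPM), and Igfbp6 was slightly lower in the Wif1-led cluster (0.805, 0.766 to 0.845). Igf2r was lower there too, at 19.9 against 60.5 CPM.

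In single cells Igfbp5 was spread over most of the Wif1-led cluster. The median Wif1-led cell held 15.5 Igfbp5 UMIs per 10000 UMIs, and 36 of 251 cells held none, whereas the median Dpt-led cell held 0 and 155 of 264 held none. For Igfbp6 the medians were 8.35 and 9.26 UMIs per 10000, with 34 and 13 cells at 0. Igfbp2 and Igfbp3 had a median of 0 in both clusters, and 204 and 142 of the 251 Wif1-led cells held none, so their higher levels there came from a minority of cells. Among thinned Wif1-led cells, Igfbp4 was found in 44.3% of the 61 cells with an Igf1 UMI and 26.9% of the 186 without, Igfbp5 in 73.8% and 68.8%, and Igfbp6 in 52.5% and 57.5%. Among thinned Dpt-led cells the shares were 29.2% of the 24 cells with an Igf1 UMI and 24.3% of the 239 without for Igfbp4, 37.5% and 16.3% for Igfbp5, and 70.8% and 61.5% for Igfbp6.

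**Figure D3:**
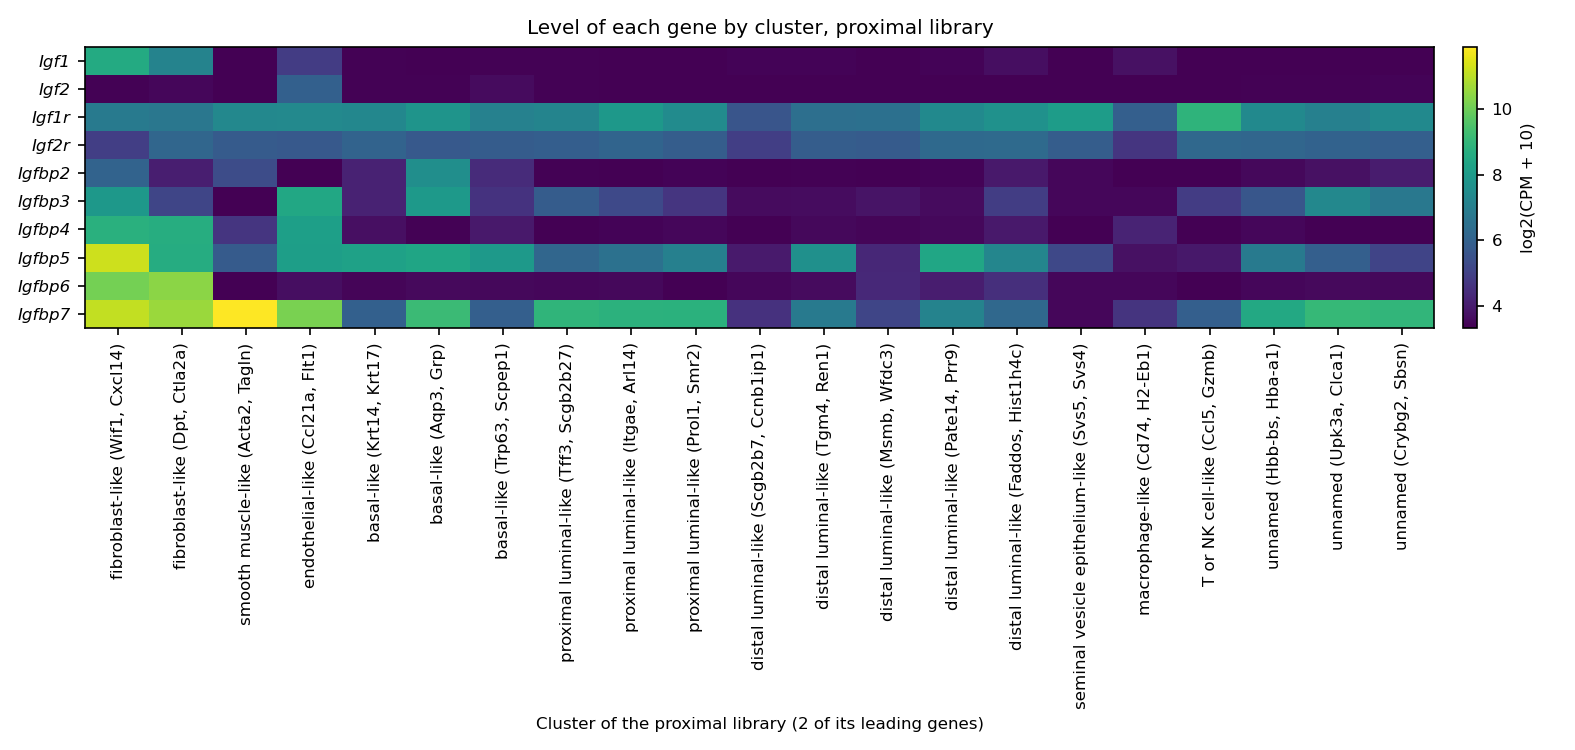
Heat map of the level of each of the 10 genes, as log2(CPM + 10), in each of the 21 clusters of the proximal library, labelled with the class and 2 leading genes. Igfbp2 is highest in the Aqp3-led basal-like cluster at 179 CPM, and Igfbp5 differs among the distal luminal-like clusters, from 5.39 CPM to 324 CPM.

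Basal-like cells were uneven as well. The cluster led by Aqp3, Grp and Krt5 (225 cells) was set against the clusters led by Krt14 (313 cells) and by Trp63 and Lcn2 (374 cells). Igfbp2 is itself among the leading genes of the Aqp3-led cluster, so its higher level there was known when the pair was chosen. The class that scored second for this cluster was periurethral. Of 6 genes with enough UMIs, 3 were higher in the Aqp3-led cluster and none lower, where 2.33% of all genes were higher and 3.95% lower. Igfbp3 stood at 232 against 10.6 CPM (a ratio of 21.9, 17.5 to 27.6), Igfbp2 at 179 against 9.11 CPM (19.7, 15.5 to 25.4) and Igfbp7 at 568 against 51.1 CPM (11.1, 9.99 to 12.4). Igfbp5 was close to even, at 318 and 263 CPM, and Igf1r stood at 208 and 137 CPM.

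Levels of Igfbp5 and Igfbp7 also varied among the 5 distal luminal-like clusters. Igfbp5 stood at 324 CPM in the Pate14-led, 187 CPM in the Tgm4-led, 145 CPM in the Gm26917-led, 9.53 CPM in the Msmb-led and 5.39 CPM in the Scgb2b7-led cluster. The Tgm4-led cluster exceeded the Msmb-led cluster 19.6-fold (16.1 to 24.1) in Igfbp5 and 4.35-fold (3.80 to 4.99) in Igfbp7, and Igfbp6 was lower at 0.180 (0.101 to 0.303). Those 3 calls were among 6 genes, where 2% of all genes were higher and 3.15% lower. In a check chosen after these values were seen, which left out the 1 cell of each cluster with most UMIs of the gene, Igfbp6 was no longer called, at 0.420 (0.216 to 0.775), since 67 of the Msmb-led cluster's UMIs lay in 1 cell. The same check gave 37.2 (28.3 to 49.9) for Igfbp5 and 4.81 (4.16 to 5.59) for Igfbp7. The Pate14-led cluster exceeded the Msmb-led cluster 34.0-fold (27.8 to 42.0) in Igfbp5 and 5.39-fold (4.61 to 6.31) in Igfbp7, 2 of 5 genes, where 1.73% of all genes were higher and 2.98% lower. Without the cells with most UMIs these ratios were 62.4 (47.3 to 83.98) and 5.92 (5.00 to 7.01).

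The unnamed cluster led by Clca1, Calca and Upk3a (246 cells), whose best-scoring class was proximal luminal, stood at 150.3 CPM of Igfbp3 against 33.7 CPM in proximal luminal-like cells, a ratio of 4.46 (4.02 to 4.94). It was the single gene called of 5, where 1.18% of all genes were higher and 1.73% lower. The unnamed cluster led by Crybg2 and Sbsn held 98.7 CPM of Igfbp3. Together with the Aqp3-led basal-like cells, these clusters held the higher epithelial levels of Igfbp3.

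Between the libraries, classes are set side by side with region and kit version inseparable. Distal luminal-like cells formed 8 ventral and 5 proximal clusters, proximal luminal-like cells 1 and 3, and basal-like cells 1 and 3. The 10 marker genes of distal luminal-like cells took 471234 CPM of the ventral and 235582 CPM of the proximal cells of that class, and the median gene was 0.83 higher in the proximal library on the log2 scale of CPM. In distal luminal-like cells, 4 of 6 genes were higher in the proximal library by the 4-fold rule and none lower, where 13.3% of all genes were higher and 0.497% lower. Igfbp5 stood at 88.0 against 0.348 CPM (a ratio of 253, 156 to 443), Igfbp7 at 54.4 against 0.435 CPM (125, 80.7 to 205) and Igfbp6 at 4.70 against 0.196 CPM (24.0, 12.3 to 53.4). Igfbp3 had 96 UMIs in the proximal and none in the ventral cells, at least 43.2-fold higher by its point value against a limit of 3 counts over the ventral cells and at least 34.4-fold by the exact 95% interval of the ratio. Igfbp3 and Igfbp6 were not called after 5% free RNA was subtracted. Of the Igfbp6 UMIs, 8 of 9 ventral and 67 of 160 proximal ones lay in 1 cell each. The classes differ in their clusters: the Msmb-led cluster of each library, compared after its values were seen, held 9.53 (7.80 to 11.5) proximal against 0.356 (0.00901 to 1.98) ventral CPM of Igfbp5, and 24.5 (21.7 to 27.6) against 0.712 (0.0862 to 2.57) CPM of Igfbp7. The intervals of the ventral Msmb-led levels are wide. Whether the gaps between like-led clusters differ from those between the whole classes was not tested. Igf1r and Igf2r were higher by 2.17 (2.04 to 2.31) and 2.73 (2.49 to 2.996). With totals that left out genes over 1% of UMIs these differences fell from 0.93 to 0.42 and from 1.03 to 0.64 on the log2(CPM + 10) scale.

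In proximal luminal-like cells, Igfbp3 alone of 5 genes was called, at 33.7 against 2.97 CPM (11.4, 4.42 to 41.8), where 11.9% of all genes were higher and 2.63% lower. Igfbp5 stood at 77.4 against 104 CPM and Igfbp7 at 459 against 232 CPM. The Igfbp5 difference, -0.38 on the log2(CPM + 10) scale, ranged from -1.28 to 0.029 over the alternatives and turned with at least 1000 genes per cell. The Igfbp7 difference, 0.96 on the log2(CPM + 10) scale, was -0.031 without the ventral cells rich in Sbp and Spink1. In basal-like cells 1 gene was higher in the proximal library and 2 lower of 8, where 13.6% of all genes were higher and 2.7% lower. Igfbp3 was higher at 15.8 (6.14 to 58.0), while Igfbp4 and Igfbp6 were lower at 0.0184 (0.0121 to 0.0275) and 0.0243 (0.0127 to 0.0445). Leaving out the basal-like cells with fibroblast markers kept the Igfbp3 and Igfbp4 calls. Igfbp6, at 1.15 against 11.3 CPM from 14 and 8 UMIs, then fell under the UMI minimum, while Igfbp7 was then called higher in the proximal library. Igfbp2 stood at 68.0 and 46.9 CPM, a ratio of 1.45 (1.03 to 2.11).

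**Figure D4:**
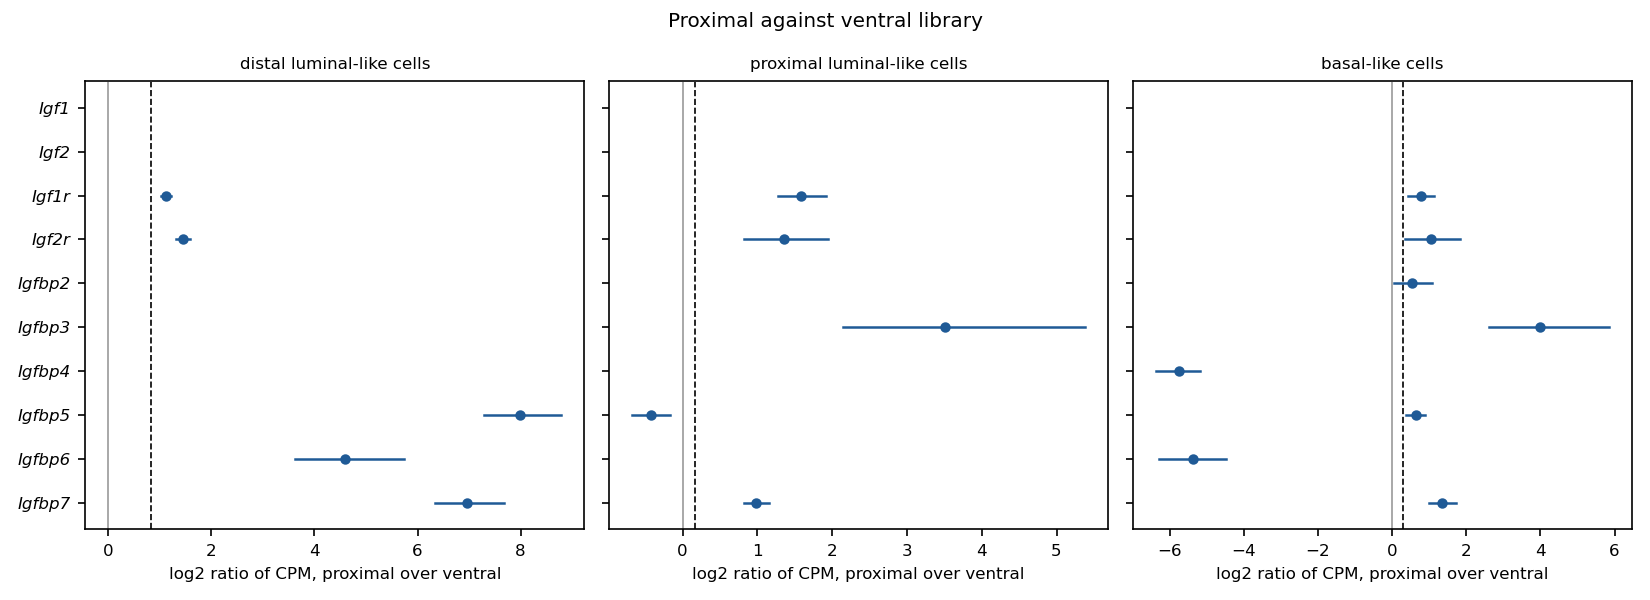
Log2 ratio of CPM, proximal over ventral library, for each gene in distal luminal-like, proximal luminal-like and basal-like cells, with bars for exact 95% intervals of counting error; genes under 50 UMIs or without UMIs on a side are not drawn, and the dashed line is the median over all genes tested. In distal luminal-like cells Igfbp5, Igfbp6 and Igfbp7 lie far to the right of that median, and in basal-like cells Igfbp4 and Igfbp6 lie to the left.

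The other genes of the pathway were read from a list of 32, of which Ins1 had no UMI in either library. Between fibroblast-like and epithelial-like cells, 4 of 23 with enough UMIs were higher and 1 lower, where 11.5% of all genes were higher and 8.44% lower. Of the higher genes, Pappa, which cuts IGFBP4, stood at 29.1 against 0.291 CPM (99.8, 62.5 to 168), Pappa2, which cuts IGFBP3 and IGFBP5, at 75.5 against 1.94 CPM (38.9, 32.0 to 47.7), Htra1, a secreted serine protease, at 184 against 5.96 CPM (30.9, 27.5 to 34.7), and the endocytic receptor Lrp1 at 226 against 10.3 CPM (22.0, 20.0 to 24.2). Within fibroblast-like cells, Pappa and Pappa2 were the only 2 of 18 list genes called, and both were lower in the Wif1-led cluster, where 2.24% of all genes were lower and 1.16% higher. Pappa stood at 4.24 against 48.1 CPM and Pappa2 at 11.03 against 124.8 CPM in the Dpt-led cluster. The cluster with more Igf1, Igfbp2, Igfbp3 and Igfbp5 RNA was the one with less RNA of both proteases.

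In the proximal library, basal-like cells exceeded luminal-like cells in Lrp1, Htra1, Irs2 and Grb10, 4 of 22 genes, and were lower in Grb14, where 6.4% of all genes were higher and 6.9% lower. Lrp1 stood at 45.9 against 2.58 CPM (17.8, 14.8 to 21.5) and Htra1 at 26.4 against 1.53 CPM (17.3, 13.5 to 22.2). Irs2, the adaptor that couples the receptors to PI3 kinase, stood at 207 against 45.5 CPM (4.55, 4.30 to 4.81). Grb10, which restrains the receptors, stood at 87.3 against 9.42 CPM (9.27, 8.35 to 10.3), while its relative Grb14 stood at 2.94 against 24.0 CPM (0.122, 0.0852 to 0.170). In the ventral library Lrp1, Irs2 and Foxo1 were the 3 of 15 called, all higher in basal-like cells, where 11.5% of all genes were higher and 4.21% lower. Between proximal and distal luminal-like cells of the proximal library, Irs2 and Grb10 were higher in the former and Igfals, Pappa2 and Irs1 lower, of 22 list genes, where 10.2% of all genes were higher and 5.81% lower. In the ventral library Irs2 was the 1 gene called of 14, where 7.61% of all genes were higher, so the higher shares were near the background in both. Irs2 stood at a ratio of 7.47 (6.74 to 8.29) in the proximal and 6.49 (4.39 to 9.36) in the ventral library.

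Endothelial-like cells were higher than epithelial-like cells in 6 of 23 list genes and lower in 2, where 7.7% of all genes were higher and 6.24% lower. Cd93, a surface partner of IGFBP7, stood at 282 against 0.117 CPM, and all of its 228 UMIs lay in the 55 cells without the lymphatic marker set. Stc1, which inhibits PAPPA, stood at 82.9 against 1.996 CPM (41.5, 30.5 to 56.0), and the insulin receptor gene Insr at 158 against 24.2 CPM (6.54, 5.42 to 7.83). Macrophage-like cells were higher in 2 of 22 list genes, among them the PI3 kinase subunit Pik3r1 at 471 against 49.3 CPM, and lower in 4, among them the growth hormone receptor Ghr with 1 UMI. Of all genes 7.91% were higher and 14.5% lower in macrophage-like cells, so the higher share of the list was near that background. Between the libraries, 5 of 21 list genes were higher in the proximal library in distal luminal-like cells, where 13.3% of all genes were higher, and none lower. In proximal luminal-like cells 4 of 19 were higher and 1, Irs1, lower, where 11.9% of all genes were higher and 2.63% lower. In basal-like cells 3 of 18, Irs2, Grb10 and Igf2bp2, were higher and none lower, where 13.6% of all genes were higher and 2.7% lower. Grb10 and Igf2bp2 were thus among the higher genes in each class compared between the libraries, and Grb14 in both luminal-like classes. In distal luminal-like cells Grb14 stood at 26.1 against 1.00 CPM and Igf2bp2 at 12.1 against 0.609 CPM.

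The genes whose levels over the 21 proximal clusters ran most like each member were sought among 11751 genes with at least 200 UMIs, by Pearson's r of log2(CPM + 10), as a description over clusters of 1 library that share depth and free RNA. For Igf1 these were Nrxn3 (0.99), Clip3 and Col15a1, for Igfbp4 Penk (0.98), Cd34 and Jam3, and for Igfbp6 Tcf21 (0.99), Osr2 and C1qtnf7. Igfbp2 ran with Cpa6 (0.83), Grp and Aqp3, Igfbp3 with Dgke (0.83), Pir and Emp1, Igfbp5 with H2afy2 (0.84), Gas6 and Fam92a, and Igfbp7 with Ntn4 (0.91), Nr1d1 and Pam. For the receptors the nearest genes were Ube2b (0.83) for Igf1r and Aig1 (0.78) for Igf2r, and Igf2 had too few UMIs to be placed. No member and no list gene was among the 3 nearest genes of another member.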

How the data were processed

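Single-cell 3′ libraries of the ventral lobes and of the proximal and periurethral region were analysed from the deposited UMI counts per gene and barcode. The authors made these counts with Cell Ranger 7.0.0 on mm10, per the submitters' processing notes, and the annotation is not given in the sources used here. No normalization of the counts by the authors is recorded. Both matrices list 32285 features.

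Computation used Python 3.11.15, scanpy 1.11.5, anndata 0.12.19, igraph 0.11.9, numpy 2.4.6, scipy 1.17.1, pandas 2.3.3 and matplotlib 3.10.9. Barcodes under 500 genes or over 10% mitochondrial UMIs were removed, 226 ventral and 635 proximal. Scrublet called 7 ventral and 4 proximal cells doublets, 0.193%, which means that it did not work and that doublets are largely still present. Cells scaled to 10000 UMIs were clustered per library on 2000 variable genes, without the members and pathway list, 30 components and 15 neighbours, with the Leiden method at resolution 1 and seed 0. A cluster took the class whose markers stood highest, if at least 3 were found in 25% of its cells, and stayed unnamed where markers of another class outnumbered its own among its 10 leading genes. The scoring and these limits were set with the clusters in view.

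UMIs were summed per class with exact Poisson intervals, shares have Clopper-Pearson intervals after thinning to 1000 UMIs, and ratios have exact conditional intervals, all at 95% and covering only counting error. Where no UMI was found, the limit is 3 counts. Up to 4 called pathway genes per comparison were named by size of ratio, and similar genes by Pearson's r. The steps were run on simulated data with counting error only, without doublets or mixed RNA. Simulated cells were drawn from the summed profiles of classes already named, so they cannot test the naming of real cells. Members and lists were chosen with earlier results of these data known. Sequences are from RefSeq. Alternatives covered cell filters, doublets, clustering, naming, scaling, thresholds, free RNA, mixed cells and, added after seeing the data, fibroblast markers in basal-like cells, unnamed clusters and the pairs of clusters. The free RNA setting subtracted an assumed 5% of each class total, with the summed profile of all kept cells. The true amount of free RNA was not measured.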

Additional observations from a re-analysis of the deposited data

Results flagged for a closer look

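Igfbp5 is given here because its ratio between the luminal classes went opposite ways in the 2 libraries as clustered here. Proximal luminal-like over distal luminal-like cells, the ratio of CPM was 0.88 in the proximal library and 299 in the ventral library. The levels behind it were 77.4 and 88.0 CPM in the proximal library and 104 and 0.348 CPM in the ventral library, so the distal luminal-like level is the one that differed most. The difference between the 2 ratios was not tested, since each library is a single sample. The opposite direction depends on the clustering: at resolution 2 the proximal library's difference was 0.19 on the log2(CPM + 10) scale in place of -0.17, so that both libraries then pointed the same way. Within the proximal library the Msmb-led and Scgb2b7-led distal luminal-like clusters held 9.53 and 5.39 CPM.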

How the results depend on the processing

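Counts of called members stayed within 1.5 times the reported value in 145 of 151 recomputations. With a 2-fold threshold, 5 members in place of 3 were called between basal-like and luminal-like proximal cells, 4 in place of 2 between proximal and distal luminal-like proximal cells, 3 in place of 1 between the libraries in proximal luminal-like cells and 5 in place of 3 in basal-like cells. A minimum of 20 UMIs gave 6 in place of 3 between ventral basal-like and luminal-like cells, adding Igf1, Igfbp2 and Igfbp6. Subtracting 5% free RNA gave 2 in place of 4 between the libraries in distal luminal-like cells, without Igfbp3 and Igfbp6. Among single-gene values 852 stayed within the counting interval and 168 moved outside it, and no called gene changed direction. No paired analysis was possible because each group has 1 library. The ventral library has few basal-like cells and shallow ones, with a median of 4933 UMIs, and no stromal or endothelial cluster, so low levels there are limited by depth and a ventral stroma was not measured.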
